A study of Mus musculus with 38 samples.

Results

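The chromatin of 9 neural transcription factor genes, chosen by name from the 21938 protein-coding genes of the GENCODE vM21 annotation, was described in mouse embryonic stem cells. The genes were Neurog1, Neurog2, Neurog3, Neurod1, Neurod2, Atoh1, Olig1, Olig2 and Olig3, and each was read as its gene body with 5 kb on either side on GRCm38 (windows of 11674 to 14234 bp). Chromatin immunoprecipitation with sequencing (ChIP-seq) had been made for H3K4me3, H3K27me3, H3K9me3, H3K27ac and H3K4me1, with 3 IκBα-WT (WT) and 3 IκBα-KO (KO) libraries per mark. The 38 samples comprised these 30 libraries and 8 inputs, a single input per genotype for each mark except that H3K27ac and H3K4me1 shared theirs. All samples came from the ES-E14TG2a line at 0 h, in medium with serum and leukaemia inhibitory factor (LIF). The genotype was labelled IkappBalpha+/+ or IkappBalpha-/- (IkappaBalpha in the H3K27ac and H3K4me1 libraries). Per the study's methods, the KO cells carried CRISPR deletions made with guides to the first exon of Nfkbia, which encodes IκBα, and the WT cells had received a non-targeting guide. Both genotypes were single-cell clones, and the libraries of a group were described as separate clones. The labels name the H3K4me1 antibody for the H3K27ac libraries too, whereas the methods name another one, so what the H3K27ac libraries were precipitated with was not settled here.

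These genes encode proneural basic helix-loop-helix (bHLH) proteins and their close relatives. The proteins bind E-box DNA as dimers with E proteins and switch on neuronal or oligodendrocyte programmes, while Notch signalling holds them back through Hes repressors and Id proteins block the dimers. In embryonic stem cells such lineage genes are known to be silent and to carry H3K27me3, the mark of Polycomb repression, together with H3K4me3, the mark of promoters. H3K4me1 is known for enhancers and promoter flanks, H3K27ac for active elements and H3K9me3 for heterochromatin.

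On GRCm38 the neurogenin genes lie at chr13:56250478-56252163 (Neurog1, − strand), chr3:127633135-127635631 (Neurog2, +) and chr10:62133090-62134763 (Neurog3, +). Neurod1 lies at chr2:79452521-79456751 (−), Neurod2 at chr11:98325415-98329648 (−) and Atoh1 at chr6:64729125-64731245 (+). Olig2 at chr16:91225457-91228677 (+) and Olig1 at chr16:91269772-91271933 (+) are neighbours, and Olig3 is at chr10:19356533-19358604 (+). The windows of Neurog3 and Neurod1 hold part of another protein-coding gene, Fam241b and Cerkl, and the other 7 hold none.

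The libraries carried the chromatin of embryonic stem cells. Of 8 embryonic stem cell markers, 7 had both H3K4me3 and H3K27ac within 1000 bp of the annotated 5′ end in all 6 libraries of each mark, and Esrrb had neither. Of 6 neural progenitor markers, all 6 had H3K27me3 there in every library, and of 5 fibroblast markers 1, Thy1, had H3K4me3 there in every library. The H3K27me3 libraries held 8.91 to 10.9 M reads (M for mega) in called regions, the H3K9me3 libraries 8.55 to 12.1 M, the H3K27ac libraries 22.9 to 28.3 M and the H3K4me1 libraries 34.7 to 36.0 M. The H3K4me3 lists held 21836 to 26806 peaks and gave no read counts. Stem cell markers differed between genotypes as well, with 5 of 8 called higher in KO and 1 lower for H3K4me3 (limma), and 5 higher for H3K27ac (edgeR). Their part in the values below was not tested.

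All 9 windows carried H3K27me3 in all 6 libraries, against 44.4% of all protein-coding windows. Of the 9, 8 also had H3K4me3 and H3K4me1 in every library and no H3K9me3 call in any, a combination found in 14.3% of all windows. The exception was Neurog3, which specifies endocrine cells of the pancreas. Every base that H3K4me3 covered in at least 2 of 3 libraries of a genotype also lay in H3K27me3, 13478 bp over the windows in WT and 11212 bp in KO. Across the genome that share was 34.1% in WT and 28.3% in KO. H3K27ac lay within H3K27me3 for 92.3% of its bases in WT and 91.7% in KO, against 13.9% and 13.6% across the genome. H3K27me3 covered 66.1% to 100% of a member's window on average in WT, so high shares here follow largely from that coverage. The map of covered shares shows this as a full H3K27me3 block beside narrow H3K4me3.

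**Figure D1:**
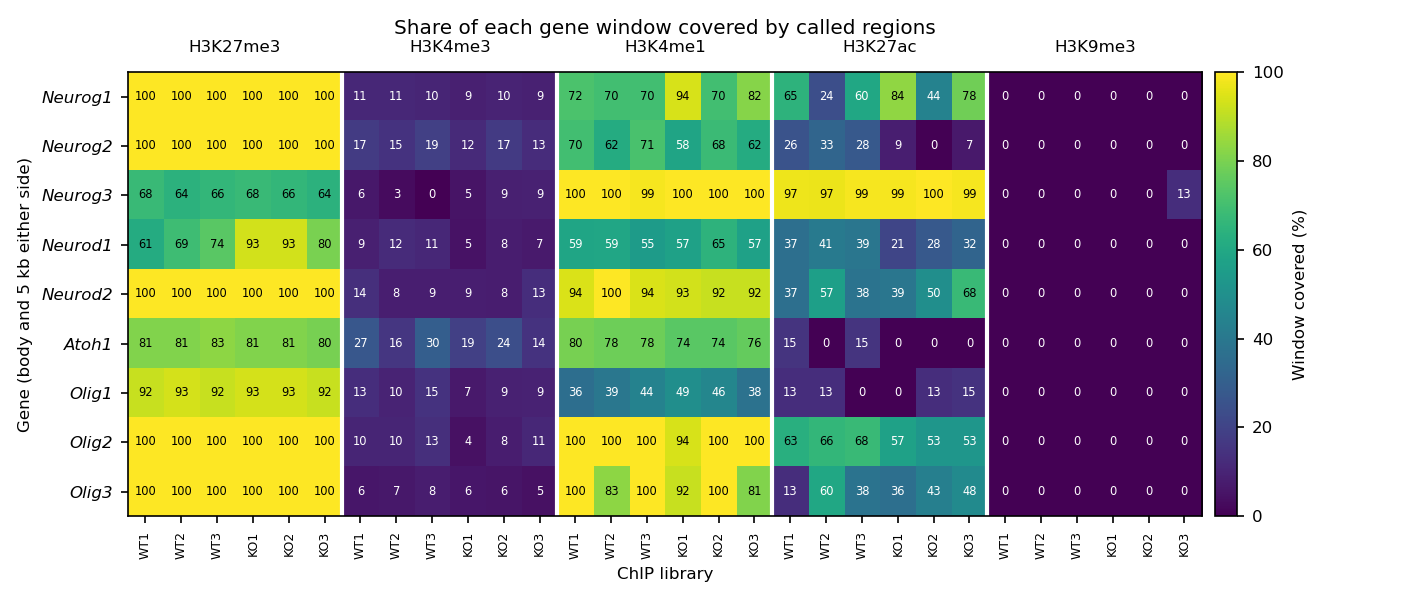
Share of each gene window covered by called regions (percent, colour and printed value) for the 9 genes in rows and the 30 ChIP libraries in columns, grouped by mark, WT before KO. H3K27me3 covers 5 windows completely in every library, H3K4me3 covers at most 24.2% of a window on average in WT, and H3K9me3 is empty apart from 1 KO library at Neurog3.

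Promoters rich in CG dinucleotides are known to gather both H3K4me3 and H3K27me3, so the letters before the genes were read from the GRCm38.p6 assembly. Over the 250 bases before the annotated 5′ end, the members held 4 to 27 CG dinucleotides with a median of 14, against a median of 8 over 21931 promoters read. Neurog1 held the most (27, reached by 8.75% of promoters) and Olig3 the fewest (4, reached by 69.1%). An E-box, CANNTG on either strand, stood in 5 of 9 members and in 64.1% of all promoters. The E-box letters CAGATG or CATCTG, which are the same site read on the 2 strands, stood in 2 of 9, Neurod1 and Neurod2, and in 13% of all promoters. The 4 promoters below belong to genes described closely below, Neurog2 for its H3K27ac call, Neurod1 for its H3K27me3, Olig2 for its H3K4me1, and Neurog3 as the member farthest from the others. Each is written 5′ to 3′ on the gene's strand with CG in capitals, and they lie at chr3:127632885-127633134 (+), chr2:79456752-79457001 (−), chr16:91225207-91225456 (+) and chr10:62132840-62133089 (+).
Neurog2: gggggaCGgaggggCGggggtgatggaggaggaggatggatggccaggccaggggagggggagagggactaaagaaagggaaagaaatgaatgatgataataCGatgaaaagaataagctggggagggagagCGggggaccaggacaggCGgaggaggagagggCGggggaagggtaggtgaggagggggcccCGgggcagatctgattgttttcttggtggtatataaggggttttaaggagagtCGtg
Neurod1: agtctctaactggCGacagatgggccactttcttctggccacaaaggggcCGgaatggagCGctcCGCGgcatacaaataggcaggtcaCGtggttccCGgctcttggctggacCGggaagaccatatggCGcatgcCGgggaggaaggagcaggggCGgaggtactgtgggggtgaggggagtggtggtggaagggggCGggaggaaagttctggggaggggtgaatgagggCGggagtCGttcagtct
Olig2: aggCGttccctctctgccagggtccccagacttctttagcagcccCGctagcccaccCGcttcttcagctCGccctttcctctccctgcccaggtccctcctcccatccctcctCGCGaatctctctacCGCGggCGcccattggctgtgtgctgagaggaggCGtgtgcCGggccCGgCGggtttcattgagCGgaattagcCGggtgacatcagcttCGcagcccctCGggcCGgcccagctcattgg
Neurog3: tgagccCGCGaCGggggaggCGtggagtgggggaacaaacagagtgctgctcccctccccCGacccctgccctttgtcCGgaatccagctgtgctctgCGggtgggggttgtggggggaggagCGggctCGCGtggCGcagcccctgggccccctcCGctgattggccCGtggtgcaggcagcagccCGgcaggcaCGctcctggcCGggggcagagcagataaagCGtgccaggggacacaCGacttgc

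H3K27me3 covered most of every window in both genotypes. The windows of Neurog1, Neurog2, Neurod2, Olig2 and Olig3 were wholly covered in all 6 libraries, which 0.825% of all protein-coding windows were, so covered bases could not differ there. The call that held the 5′ end spanned 8200 to 64200 bp over the members and libraries. Neurod2, a driver of neuronal differentiation, was the densest, with 148 ± 4.17 reads per covered kb in WT and 141 ± 6.28 in KO (mean ± SD, n = 3 libraries). Neurod1 was the sparsest, with 63.7 ± 4.95 in WT and 48.1 ± 2.82 in KO. Covered bases failed to overlap between genotypes at 1 of 9 members, higher in KO, and among all windows with a call 10.9% were higher and 7.61% lower in that way.

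That member was Neurod1, which maintains neuronal and endocrine identity. Its window held 8751, 9800 and 10600 bp of H3K27me3 in WT against 13280, 13280 and 11351 bp in KO. The KO libraries all lay above the WT libraries (9717 ± 927 against 12637 ± 1114 bp, two-sided exact permutation p = 0.1, the smallest that 3 against 3 libraries allow). The reads per covered kb went the other way, at 58.5, 68.4 and 64.2 in WT and 46.4, 46.6 and 51.4 in KO. The groups did not overlap in either measure, with wider and thinner KO calls. The covered bases of Neurod1 overlapped in the gene body alone and with 10 kb on either side. In the fit of reads per covered base over 18809 regions Neurod1 had a log2 KO/WT of -0.36 ± 0.09 (SE) and missed the threshold of 0.05 (adjusted p = 0.0547, quasi-likelihood test of edgeR with Benjamini-Hochberg adjustment). It passed with DESeq2 (adjusted p = 0.0246) and, in edgeR, without WT replicate 1 (0.0392) or KO replicate 3 (0.0434), and over its alternatives the adjusted p ran from 0.00733 to 0.233. The input of these calls was 0.23 higher in KO on the log2 scale, and its part in the difference was not tested.

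No member passed that test for H3K27me3, where 2.73% of all regions did, 1.7% higher and 1.04% lower in KO. At an unadjusted p under 0.05 the count was 1 of 9, against 2723 of all 18809 regions. Olig2, which specifies motor neurons and oligodendrocytes, showed 105, 110 and 112 reads per covered kb of its window in WT and 99.3, 98.0 and 95.8 in KO, so the groups did not overlap. Such separation towards lower KO values occurred in 2 of 9 members and in 9.57% of all windows called in every library. For the whole Olig2 region the log2 KO/WT was -0.13 ± 0.07 with an adjusted p of 0.398 (edgeR). The other 7 members had log2 values between -0.11 (Neurog2) and 0.02 (Neurog3) at the region with the largest overlap. A further region at the edge of the Olig1 window had 0.11.

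H3K4me3 formed narrow peaks, and in the windows of 5 kb on either side the KO libraries had the smaller coverage where the genotypes separated. A single peak held the 5′ end in all 6 libraries at 3 of 9 members, and at 28.0% of all protein-coding genes. At Neurod1, Neurod2 and Olig3 the region called in every library lay past the 5′ end, inside the gene. Peaks covered 3.12% (Neurog3) to 24.2% (Atoh1) of a window in WT. Of the members, 8 of 9 had a peak in all 6 libraries, against 61.7% of all protein-coding windows. Covered bases were lower in every KO library than in every WT library at 4 of 9 members, Neurog1, Neurod1, Olig1 and Olig3, and higher at none. Over all windows with a peak, 7.25% were lower in KO and 24.5% higher, 31.8% in all, so the KO lists as a whole ran towards more coverage. Each of the 4 had a two-sided exact permutation p of 0.1, the smallest possible. Neurod1, Olig1 and Olig3 separated under every other window and call setting tried, whereas Neurog1 did so among these only with an overlap of at least 200 bp. In the gene body alone 3 members were lower and 2 higher (Neurog3 and Neurod2), and with calls under 0.01 there were 3 lower and 1 higher (Neurog3).

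**Figure D2:**
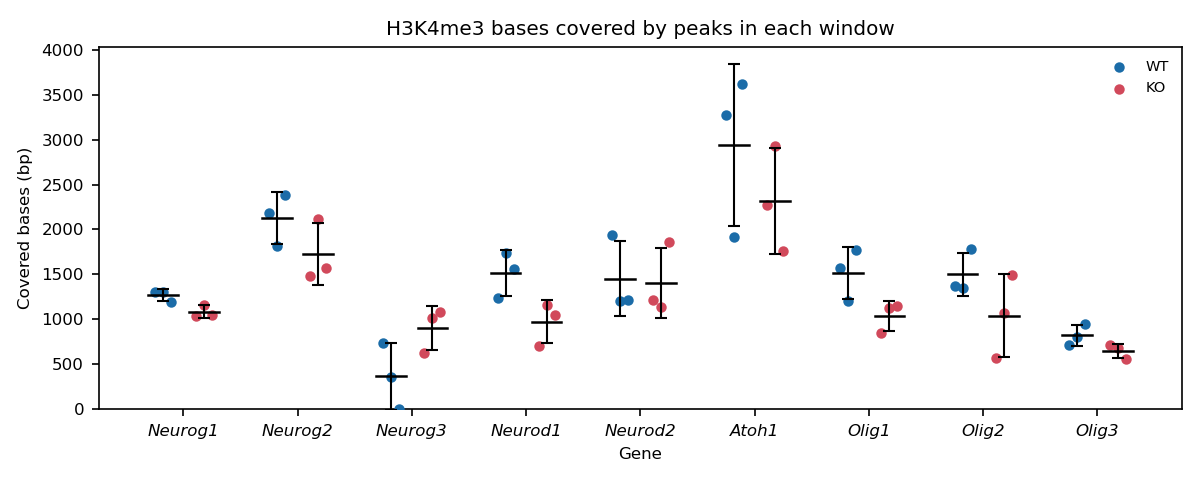
Bases covered by H3K4me3 peaks in each gene window (bp), with 1 point per library, blue for WT and red for KO, and bars for the mean ± SD of 3 libraries. The KO points lie below all WT points at Neurog1, Neurod1, Olig1 and Olig3, and Neurog3 is the member whose KO mean is above its WT mean.

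Neurog1, a determinant of sensory neurons, had 1303, 1308 and 1197 bp in WT and 1031, 1164 and 1051 bp in KO, in peaks that merged into 1 region across its 5′ end. At Neurod1 the values were 1241, 1740 and 1559 bp in WT and 708, 1163 and 1049 bp in KO. Its peak over the coding exon was called in all 6 libraries, and the one at its 5′ end in WT replicates 1 and 3 and KO replicate 2. Olig1, a partner of Olig2 in oligodendrocytes, had 1575, 1205 and 1773 bp in WT and 843, 1124 and 1148 bp in KO. Olig3, which patterns the dorsal neural tube, had a single peak of 715, 801 and 949 bp in WT and 709, 680 and 557 bp in KO. The lowest WT and the highest KO value were nearly equal at Olig3 (715 and 709 bp). They were also close at Neurog1 (1197 and 1164 bp), Olig1 (1205 and 1148 bp) and Neurod1 (1241 and 1163 bp).

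Peak height gave the same direction at Olig1 and Olig3 without passing the threshold. The fold enrichment over input at Olig3 was 7.71, 8.13 and 7.96 in WT and 5.91, 5.42 and 6.18 in KO. After centring each library on its median, log2 KO/WT was -0.52 ± 0.21 at Olig3 (limma, adjusted p = 0.0885) and -0.49 ± 0.21 at Olig1 (adjusted p = 0.104). Of 8 members tested 5 had a negative value, as did 51.0% of all 14907 regions, and the median was -0.38 against -0.01. None of the 8 was called, while limma called 19.6% of all regions, 9.82% higher and 9.75% lower. An unadjusted p under 0.05 was found at 2 of the 8, and at 5106 of all 14907 regions.

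A 2nd peak of Olig2 was called in more WT than KO libraries. Over its coding exon, 1074 to 2136 bp past the 5′ end, a peak of 884, 775 and 992 bp stood in WT with fold enrichments of 8.06, 7.74 and 7.79. KO replicates 1 and 2 had no call there and KO replicate 3 had 487 bp at a fold enrichment of 3.62. The peak nearer the 5′ end was called in all 6 libraries, with a log2 KO/WT of 0.21 ± 0.23 (limma, adjusted p = 0.564), so the shortfall was at the coding exon. This coding-exon peak was singled out after its values were seen and entered no test, since the fit needs a call in every library. At Neurog2, which drives cortical neurogenesis, the main peak covered its 5′ end in every library, with log2 KO/WT of -0.40 ± 0.21 (adjusted p = 0.192). A smaller peak within 1000 bp upstream was called in all 3 WT libraries and in KO replicate 2. Likewise, a peak upstream of Neurod2 was called in all 3 WT libraries and in KO replicate 3. In the other direction, a peak over the coding sequence of Neurog3 was called in WT replicate 1 and all 3 KO libraries. How common such peaks are over the genome was not counted.

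Covered bases at Neurod2 and Atoh1 overlapped between genotypes. At Neurod2 the region past the 5′ end had fold enrichments of 3.42, 4.46 and 5.51 in WT and 3.94, 5.32 and 5.20 in KO. The highest peak anywhere in the Neurod2 window was 6.03, 6.03 and 6.74 in WT and 3.94, 5.32 and 5.25 in KO, and in WT it lay outside the gene. Atoh1, which makes cerebellar granule cells and hair cells, had the widest coverage, 3276, 1914 and 3621 bp in WT and 2274, 2931 and 1756 bp in KO. Neurog3 had the weakest mark, at 739, 353 and 0 bp in WT and 627, 1011 and 1080 bp in KO. Its ranges overlapped, and it was the 1 member with more coverage in KO on average.

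H3K4me1 was the mark in which members were called, and the direction was lower in KO. At the region with the largest overlap all 9 members had negative log2 KO/WT values, as did 51.1% of all 44625 regions. The median of the members was -0.11 against -0.00 over all regions. A further tested region in the Neurog2 window, chr3:127639001-127643800, went the other way at 0.17 ± 0.14 (edgeR, adjusted p = 0.554). With TMM on the counts as deposited, which moved the median of all regions to 0.05, Atoh1 was above 0 and the other 8 below, and Atoh1 did so too without WT replicate 3 or KO replicate 3. edgeR called 2 of 9, both lower, where it called 5.64% of all regions, 1.64% lower and 4% higher. An unadjusted p under 0.05 was reached by 5 of 9, and by 8300 of all 44625 regions. The dot plot of reads per covered kb shows the separation gene by gene.

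**Figure D3:**
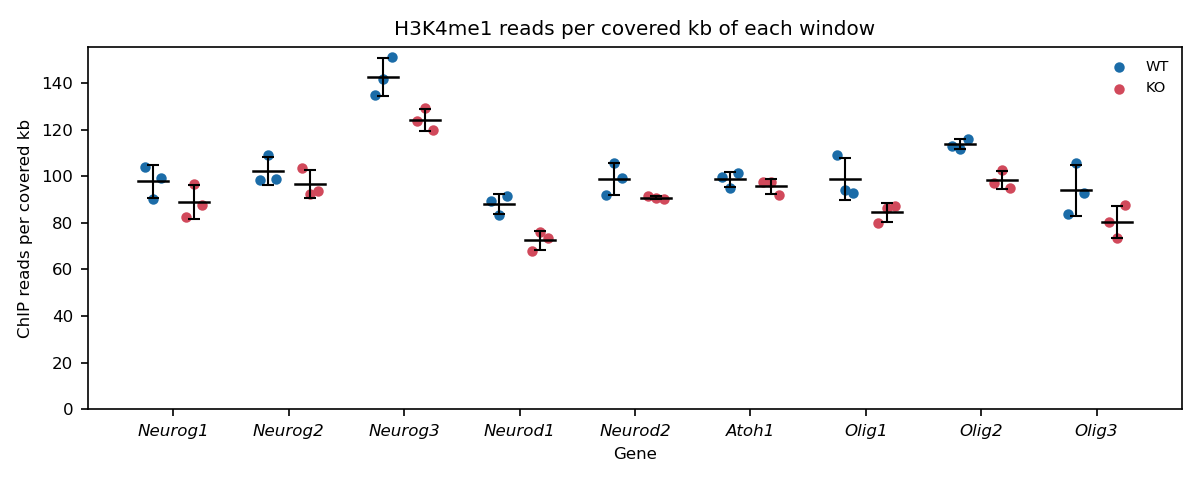
H3K4me1 ChIP reads per covered kb of each gene window, with 1 point per library, blue for WT and red for KO, and bars for the mean ± SD of 3 libraries, from 0. All KO points lie below all WT points at Neurog3, Neurod1, Neurod2, Olig1 and Olig2, and the groups overlap at the other 4.

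Olig2 had 113, 112 and 116 reads per covered kb of its window in WT and 97.2, 103 and 95.1 in KO. Every KO library lay below every WT library by more than the spread within either group (114 ± 2.13 against 98.3 ± 3.86). For its region, chr16:91217801-91234400, log2 KO/WT was -0.17 ± 0.04 and the adjusted p was 0.0326 (edgeR). Over its alternatives the adjusted p ran from 0.00417 to 0.141, with 7 of 14 under 0.05. The call was lost with TMM on the counts as deposited (0.141) and without any 1 of WT replicates 1, 2 and 3 and KO replicates 1 and 3 (adjusted p of 0.0609 to 0.121). The log2 value stayed between -0.20 and -0.12 in all 14. The input of the Olig2 region was 30.4 reads per covered kb in WT and 29.1 in KO.

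Neurod2 was the other call, with a smaller difference over a much longer region. Its H3K4me1 region spanned chr11:98306601-98425600, 119000 bp that run far beyond the gene. Scaled reads per covered kb were 86.6, 87.9 and 85.4 in WT and 81.4, 81.6 and 82.5 in KO, with log2 KO/WT of -0.08 ± 0.02 (edgeR, adjusted p = 0.0114). In the window of the gene alone, the values were 92.1, 106 and 99.1 in WT and 91.4, 90.7 and 90.1 in KO, and the fit on gene windows did not call it (log2 -0.10, adjusted p = 0.355). Over its alternatives the adjusted p ran from 1.57e-05 to 0.552, with 9 of 14 under 0.05. It was lost with TMM on the counts as deposited (0.552) and without WT replicate 2, KO replicate 1 or KO replicate 2 (adjusted p of 0.0529 to 0.177). The input of the long region was lower in KO as well, at 30.5 reads per covered kb in WT and 27.5 in KO, a log2 of -0.15. Over the H3K4me1 regions of the members the input log2 KO/WT ran from -0.26 to 0.14. The part of the input in these values was not tested.

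Reads per covered kb were lower in every KO library at 3 further members, which makes 5 of 9, against 18.8% of all windows called in every library (10.6% were higher). These reads are not scaled between libraries, and in the scaled values of the fitted regions 3 of 9 members separated, Neurod2, Olig1 and Olig2, all lower. Neurog3 had 135, 142 and 151 in WT and 124, 129 and 120 in KO. Neurod1 had 89.2, 83.5 and 91.5 in WT and 67.9, 76.0 and 73.4 in KO. Olig1 had 109, 94.0 and 93.0 in WT and 79.8, 86.4 and 87.4 in KO. In the fit of the regions their log2 KO/WT values were -0.07, -0.20 and -0.18 with adjusted p of 0.317, 0.198 and 0.296 (edgeR).

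The covered length of H3K4me1 overlapped between genotypes at most members. It was lower in every KO library at 2 of 9 members, Neurod2 and Atoh1, against 15.4% of all windows with a call (11.7% were higher), and at none in the gene body alone. At Atoh1 the values were 9645, 9445 and 9445 bp in WT and 9000, 9000 and 9245 bp in KO, a difference of a few steps of 200 bp, in which these regions were called. The reads per covered kb at Atoh1 overlapped, at 99.5, 95.0 and 101 in WT and 97.7, 97.4 and 91.9 in KO.

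**Figure D4:**
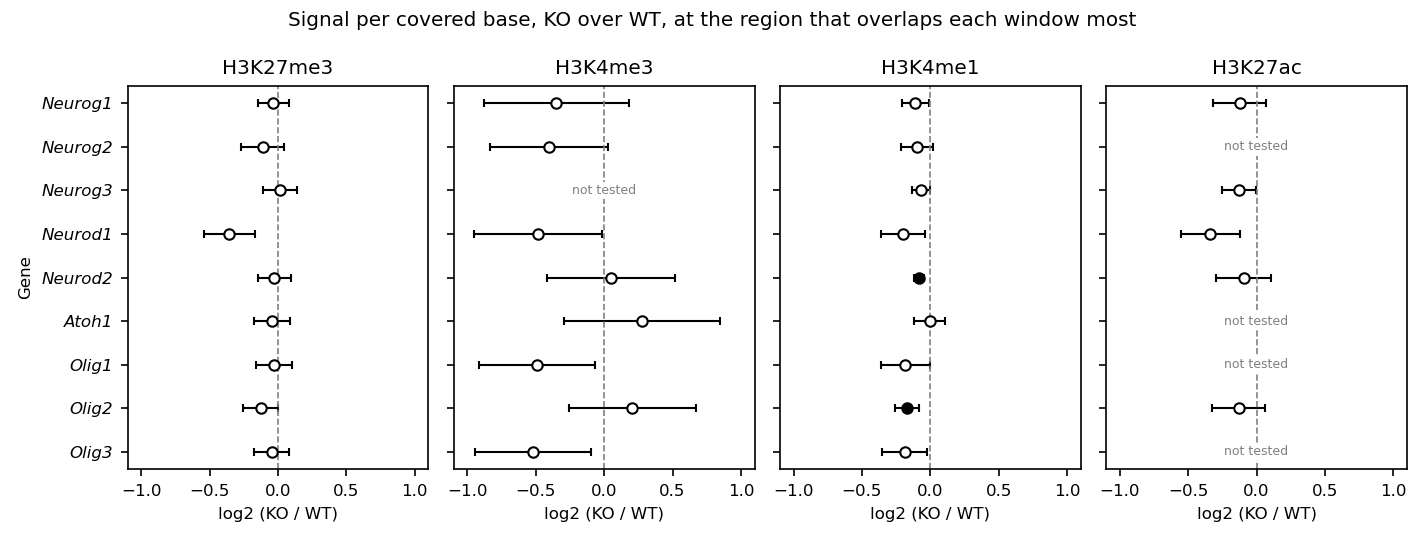
Log2 KO/WT of the signal per covered base (peak fold enrichment for H3K4me3) at the region that overlaps each gene window most, with bars of 2 SE to either side. Filled points have an adjusted p under 0.05, which holds for Neurod2 and Olig2 in H3K4me1, and genes without a region called in all 6 libraries are marked as not tested.

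H3K27ac was patchy over the members and weak in most of them, and 3 windows were covered less in KO. A call was present in all 6 libraries at 6 of 9 members, and at 66.7% of all protein-coding windows. Coverage in WT ran from 8.77% (Olig1) to 97.6% (Neurog3) of the window. Covered bases did not overlap between genotypes at Neurog2, Neurod1 and Olig2, all lower in KO, against 8.2% of all windows with a call (21.6% were higher, 29.8% in all). Without WT replicate 2 the count was 5 of 9, and in the gene body alone it was 1, Neurog2. The maps of called regions show these 3 genes.

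**Figure D5:**
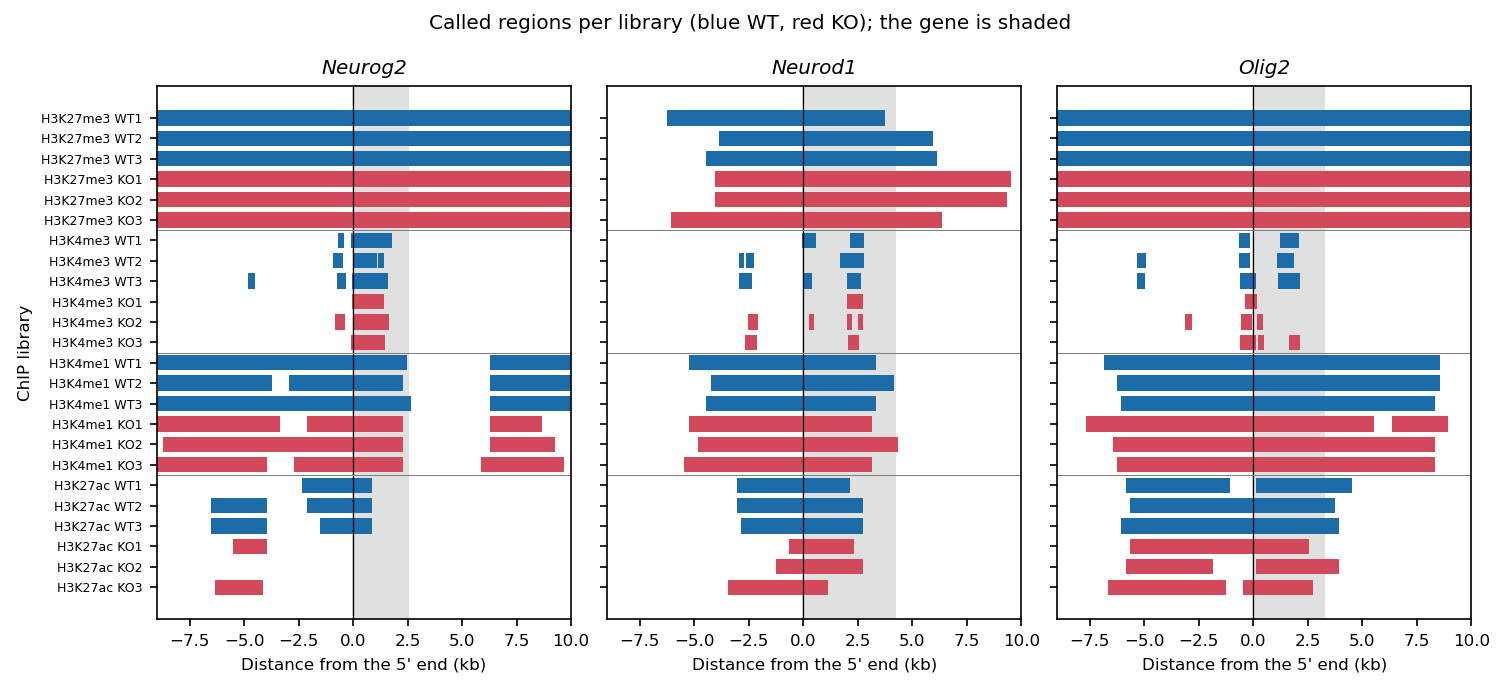
Called regions of each library (rows, blue WT and red KO) around Neurog2, Neurod1 and Olig2, by distance from the annotated 5′ end in kb, with the gene shaded and regions cut at the edges of the plot. The H3K27ac call over the 5′ end of Neurog2 appears in the 3 WT rows alone. H3K27me3 at Neurod1 reaches further past the 5′ end in KO, mainly in KO replicates 1 and 2, while its upstream ends overlap between genotypes. The H3K4me3 peak in the coding exon of Olig2 is missing from KO replicates 1 and 2.

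At Neurog2, H3K27ac covered 3200, 4066 and 3466 bp in WT and 1066, 0 and 866 bp in KO. A region over the 5′ end, chr3:127630801-127634000, was called in all 3 WT libraries (3200, 3000 and 2400 bp) and in no KO library. Of all protein-coding genes, 0.925% had their 5′ end called in that way and 0.287% in the opposite way. The WT calls were weak, at 1.22, 1.19 and 1.38 times the input with FDR values of 0.0132, 0.0251 and 0.000407. With calls of an FDR under 0.01, or with equal numbers of top-ranked calls, Neurog2 no longer separated the genotypes. A region without a call has no reads in these lists, so the KO level there is unknown rather than 0. The promoter printed above lies inside this region.

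Neurod1 and Olig2 kept an H3K27ac call in every library. At Neurod1 it covered 5200, 5800 and 5600 bp in WT and 3000, 4000 and 4600 bp in KO, the KO libraries all below. Scaled reads per covered kb were 56.7, 47.7 and 53.7 in WT and 45.2, 40.6 and 39.6 in KO, and log2 KO/WT was -0.34 ± 0.11 (edgeR, adjusted p = 0.0664). At Olig2 the covered bases were 8344, 8744 and 8944 in WT and 7544, 6944 and 6944 in KO, while the log2 value was -0.13 ± 0.10 with an adjusted p of 0.45. None of the 5 members tested was called, where edgeR called 12.8% of all regions (4.56% lower). Of the 5, 1 had an unadjusted p under 0.05, as had 6277 of all 24039 regions. All 5 values were below 0, with a median of -0.13 against -0.01 over all regions, and Neurod2 was above 0 without KO replicate 3.

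In the remaining members the covered bases of H3K27ac overlapped between genotypes. At Atoh1 a region of 1800 bp over the gene was called in WT replicates 1 and 3 and in no other library. At Olig1 a region of 1600 to 1800 bp was called in WT replicates 1 and 2 and KO replicates 2 and 3. At Olig3 coverage ran from 1600 to 7200 bp in WT and from 4404 to 5800 bp in KO, but its reads per covered kb did not overlap, at 49.4, 44.2 and 45.7 in WT and 32.3, 41.9 and 33.3 in KO. They came from a call past the gene in WT replicate 1 and KO replicate 1. In WT replicate 3 and KO replicates 2 and 3 the call lay over the 5′ end, and WT replicate 2 had both. The values therefore do not compare the same place. The separation at Olig3 made 1 of the 6 members called in every library, against 6.17% of windows lower and 9.08% higher. Neurog1 varied widely within each genotype, with 7563, 2800 and 6963 bp in WT and 9763, 5200 and 9163 bp in KO.

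Neurog3 had the most unlike chromatin of the 9. H3K27me3 covered 66.1% of its window in each genotype, H3K27ac 97.6% in WT and 99.1% in KO, and H3K4me1 99.5% and 100%, while H3K4me3 covered 3.12% and 7.76%, the lowest share of the 9 in WT but not in KO. The annotation puts Neurog3 inside Fam241b, which lies on the other strand and spans all 11674 bp of the window, with a 5′ end 10830 bp past that of Neurog3. Marks of the 2 genes cannot be told apart there. The H3K27ac call over the Neurog3 5′ end was longer in KO, 13400, 14600 and 14000 bp against 11600, 11800 and 12200 bp, with no overlap. Inside the window the covered bases overlapped, at 11363, 11311 and 11511 bp in WT and 11511, 11674 and 11511 bp in KO. How often the length of such calls separated over all genes was not counted, and 21.6% of windows with an H3K27ac call had more covered bases in KO. The reads per covered base of the Neurog3 call were lower in KO at a log2 of -0.13 ± 0.06 (edgeR, adjusted p = 0.218). The input there was lower in KO too, 37.5 reads per covered kb in WT and 30.5 in KO, a log2 of -0.30. The calls stood at 1.70, 1.84 and 1.85 times the input in WT and 1.96, 2.15 and 1.84 in KO. The part of the input was not tested.

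Neurog1, Neurod1, Neurod2 and Olig2 were the members tested in each of the 4 marks. Neurog2, Olig1 and Olig3 were not tested for H3K27ac, and their regions of largest overlap had negative log2 KO/WT values in the other marks tested. Neurod1 and Neurog1 had negative values in each of the 4 marks, and those of Neurod1 were the larger in size. At Neurod1 they were -0.36 for H3K27me3, -0.34 for H3K27ac, -0.20 for H3K4me1 and -0.48 for H3K4me3, and none passed its test (adjusted p of 0.0547, 0.0664, 0.198 and 0.15, edgeR and, for H3K4me3, limma). The marks were measured in separate libraries, but H3K27ac and H3K4me1 with the same inputs. Cerkl starts 34 bp upstream of Neurod1 on the same strand and runs through it, so these marks too belong to both.

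H3K9me3 was absent from the called lists of 8 members in all 6 libraries. At Neurog3, KO replicate 3 had 1 region of 2800 bp upstream of the gene, at 1.30 times the input and an FDR of 0.0149, and it covered 1511 bp of the window. No member had a region called in all 6 libraries, so none could be tested, and none separated by genotype, where 4.76% of windows with a call were higher in KO and 11.4% lower (16.1% in all). In reads per covered kb 3.02% of windows called in every library were higher and 4.18% lower, and edgeR called 0.168% of regions higher and 0.267% lower (0.435% in all).

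Genes that act with the proneural factors were counted in the same fits, as called where any tested region in the window was. Over all regions 19.6% were called for H3K4me3, 2.73% for H3K27me3, 12.8% for H3K27ac and 5.64% for H3K4me1. Those are shares of regions, and a window can hold several, so the counts of genes below are a description only. Of 11 other neural bHLH genes, all 11 carried H3K27me3 in at least 1 library and 10 in all 6. In that list 1 gene was called higher in KO for H3K27me3, 1 higher and 1 lower for H3K4me3, and none for H3K27ac or H3K4me1. Of 7 E protein and Id genes, 4 were called for H3K27ac, 2 in each direction, 1 for H3K4me1 (lower) and 1 for H3K27me3, Id2, which rose (log2 0.40 ± 0.09, adjusted p = 0.0258). Id2 encodes an inhibitor of bHLH dimers, and its scaled reads per covered kb were 34.3 ± 3.68 in WT and 45.0 ± 2.98 in KO.

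Of 18 Notch pathway genes, 6 were called for H3K4me3, 3 in each direction, 5 for H3K27ac (3 higher), 2 for H3K4me1 (both lower) and 1 for H3K27me3 (higher). Dll4, a Notch ligand, had the largest fall in H3K4me3 among these lists, at a further region of its window, with log2 KO/WT of -1.26 ± 0.21 (limma, adjusted p = 0.000859) and centred fold enrichments of 8.84 ± 0.05 in WT and 3.69 ± 0.32 in KO. Hes3, a Hes family repressor, followed, also at a further region, at -0.99 ± 0.22 (adjusted p = 0.00486). Jag2, another ligand, fell in H3K4me1 by 0.62 ± 0.06 on the log2 scale (edgeR, adjusted p = 2.41e-05), where its input was 27.5 reads per covered kb in WT and 14.4 in KO.

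Of 12 neuronal targets of these factors, 3 were called for H3K4me3 (2 lower), 1 for H3K27me3 (higher), 2 for H3K27ac (both higher) and 3 for H3K4me1 (2 higher). Tubb3, a neuronal tubulin, rose in H3K27ac (log2 0.47 ± 0.03, edgeR, adjusted p = 1.91e-06) and in H3K4me1 (0.44 ± 0.02, adjusted p = 5.59e-09). Cbfa2t3, a corepressor, rose at further regions of its window in H3K27ac (0.46 ± 0.02, adjusted p = 7.25e-09) and in H3K27me3 (0.71 ± 0.06, adjusted p = 1.13e-05). The input was higher in KO there as well, 31.2 in WT and 41.9 in KO per covered kb at Tubb3 in the H3K27ac lists and 17.4 and 30.7 at Cbfa2t3 in the H3K27me3 lists. Its part in the 4 values was not tested. At the members the input differed between genotypes by -0.30 to 0.37 on the log2 scale.

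By the share of the window covered in each of the 30 libraries, the 5 protein-coding genes nearest to the median profile of the members were Dlx6, Tap1, Nkx1-1, Cyp26c1 and Slc18a3. Their mean absolute difference from that profile was 3.65, 3.75, 3.87, 3.90 and 3.93 percentage points, against a median of 34.2 over all genes. Among the members themselves Olig3 was nearest, at 4.54 points, and Neurog3 farthest, at 23.5. The libraries share inputs and a cell line, so these distances are a description only.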

How the data were processed

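The authors trimmed the reads, aligned them to GRCm38 and called regions per library against input. Per the labels the tools included Trim Galore 0.6.6, Bowtie2 2.4.4, SAMtools 1.15 and MACS2 2.2.7.1. A Drosophila spike-in in the H3K27me3 libraries was discarded by the authors, so a uniform change would not show. For H3K4me3 they deposited MACS2 peaks with a score, a fold enrichment over input (a ratio), and p-values and q-values as −log10. For the other marks they deposited epic2 regions with counts of ChIP and input reads, a p-value, an FDR, a log2 fold change over input and a score. All lists held calls under 0.05. The aligners for H3K27ac and H3K9me3 are not given in the sources used here.

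Calls of the 6 libraries of a mark were merged where they shared at least 1 bp, and regions called in all 6 were tested. Counts were fitted with edgeR 4.0.16 (quasi-likelihood, covered length in the offset, TMM on length-adjusted counts), and the SE was taken from the F statistic. Log2 fold enrichment, centred on each library's median, was fitted with limma 3.58.1. DESeq2 1.42.0 was an alternative. Adjustment was over all regions of a mark, and a call meant an adjusted p under 0.05. Scripts were tested on simulated data. A member's fold change is that of the tested region with the largest overlap. Covered bases were compared by an exact permutation test over the 20 splits of 6 libraries. Members and gene lists were chosen with earlier results of these data known. All 9 members were named, and of the 4 partner lists at most 2 called genes per mark with the largest log2 change. Intervals and p-values measure the spread between clones as sampled, 3 a genotype.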

Additional observations from a re-analysis of the deposited data

How the results depend on the processing

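Counts of members whose covered bases did not overlap were within 1.5 times of the reported ones under stricter calls, equal numbers of calls and a 200 bp overlap. In the gene body alone the count fell to 0 for H3K27me3, 1 for H3K27ac and 0 for H3K4me1, and with 10 kb on either side it was 0 for H3K27me3 (Neurod1 lost in both) and 1 for H3K9me3 (Neurog1). With single libraries left out it was 4 to 6 for H3K4me3, 1 for H3K27me3, 0 for H3K9me3, 3 to 5 for H3K27ac (5 without WT replicate 2) and 2 to 3 for H3K4me1. Counts of members called depended on the scaling. TMM on counts as deposited gave 1 for H3K27me3 (Neurod1), 2 for H3K27ac (Neurog3 and Neurod1) and 0 for H3K4me1, and it moved the median of all H3K27ac regions from -0.01 to -0.13. It also turned the split of calls over all regions from 1968 higher and 1097 lower to 721 and 4459 for H3K27ac, from 319 and 195 to 128 and 482 for H3K27me3, and from 1784 and 732 to 3327 and 347 for H3K4me1. Without TMM the split was 1193 and 2228 for H3K27ac and 1307 and 1179 for H3K4me1, and for H3K4me3 it went from 1464 and 1454 to 1597 and 874 without centring. Without TMM the count was 1 for H3K27me3 and 1 for H3K27ac, both Neurod1. DESeq2 gave 1 for H3K27me3, and gene windows gave 1 for H3K4me1 (Olig2). Regions of like length gave 3 of 8 for H3K27me3 (Neurog2, Olig2 and Olig3, all lower), where 711 of all 2025 were called, 391 lower. Such regions gave 3 of 6 for H3K4me1 (Neurog2, Neurod2 and Olig2, all lower), where 4758 of all 10959 were called, 2191 lower. With single libraries left out, 0 to 1 member was called for H3K27me3, 0 to 1 for H3K4me1, and 0 for H3K4me3, H3K9me3 and H3K27ac. The replicate numbers do not pair the samples (r of -0.02 to 0.03 over 15 same-numbered pairs). With the replicate block 1 member was called for H3K4me1 (Neurod2, Olig2 at an adjusted p of 0.0582, edgeR) and 0 for each other mark. Of 408 log2 values under an alternative, 12 lost and 12 gained a call, and none that was called changed sign. The cause of these changes was not tested. Lists of calls carry no reads outside them, which limits every statement on an uncalled library.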
